A study of Mus musculus with 12 samples.

Results

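The ubiquitin-conjugating enzymes of the Ube2 family were described in transcript measurements from mouse embryos and fibroblasts with and without a mutant proteasome subunit. Members were every row of the 2 expression tables whose gene symbol begins with Ube2 and a further letter. This gave 39 symbols among the 25952 of both tables, 35 of them in the liver table, 37 in the fibroblast table and 33 in both. Ube2d2 of the liver table and Ube2d2a of the fibroblast table are names of the same gene. Ube2cbp also matched, although the protein it encodes binds an E2 and acts like a ligase (current symbol Ube3d) and is not itself an E2.

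Ubiquitin is passed from an activating enzyme (E1) to a conjugating enzyme (E2) and, with a ligase (E3), to a substrate, which the proteasome degrades when the chain built on it is of a suitable kind. The E2 largely sets which chain is made: some start chains, some extend them on a given lysine of ubiquitin, and a few carry the ubiquitin-like modifiers NEDD8 or ISG15 instead. Several E2s are tied to processes that are prominent in the embryonic liver, where red cell precursors divide quickly and then clear most of their proteins.

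The study compared wild type (WT) with G2A. The G2A allele is a knock-in in the proteasome ATPase subunit Rpt2, encoded by Psmc1, and it removes the glycine that carries a myristoyl lipid anchor; the mutant samples are homozygous (Rpt2G2A/G2A). Livers were taken at E12.5 from 3 WT and 3 G2A embryos, and the labels describe 3 littermate pairs. Immortalized mouse embryonic fibroblasts (MEFs) gave 3 WT libraries and 2 G2A libraries. A further G2A MEF sample is labelled but was not analysed here. No sample was treated. Nothing in the labels says that the MEF libraries of a genotype came from separate cultures or clones, so p-values for MEFs measure only the spread between these libraries.

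Liver values were FPKM (fragments scaled by transcript length and library size) and do not show the depth. MEF values were read counts divided by 1 size factor per library, called scaled counts here, from 36415586 to 37695116 gene reads. One library in each source stood apart over all genes. Along principal component 1 of the MEFs, which held 73.4% of the variance, WT MEF 3 was at 72.5, beside the G2A libraries at 51.5 and 55.2 and far from the other WT libraries at -87.2 and -92.0. WT MEF 3 also had a summed level of 76734 scaled counts over an interferon-response list against 4539 to 6350 in the other 4 libraries. G2A liver 3 lay at -7.91 on the liver's first component, between the WT livers (-23.3 to -13.3) and the other G2A livers (30.6 and 34.9). Results that rest on these libraries are given with and without them. Of 11 hepatoblast markers in the livers (summed level 10128 to 14336 FPKM) and 7 fibroblast markers in the MEFs (490866 to 1184250 scaled counts), none was at 0 in every library. The fibroblast sum was lower in G2A MEFs, at 495319 and 490866 scaled counts against 612278 to 1184250 in WT. Psmc1, whose transcript level cannot show a change of 1 residue, was present in every library, at 178, 181 and 178 FPKM in WT and 151, 145 and 161 FPKM in G2A livers, and at 6485 to 8589 scaled counts in WT and 10658 and 10913 in G2A MEFs.

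Many members share sequence with other places in the genome, which bears on 50-base reads. Of all 50-base windows in the transcripts of Ube2s, 94.7% occur exactly elsewhere in the NCBIM37 (mm9) genome. The share was 75.2% for Ube2v1, 57.8% for Ube2d2, 46.0% for Ube2h, 35.9% for Ube2v2, 31.1% for Ube2q2, 30.8% for Ube2d3, 28.1% for Ube2n, 23.4% for Ube2l6 and 22.4% for Ube2l3, and lower for Ube2e1 (19.1%), Ube2j2 (18.6%) and Ube2e3 (13.0%). Values of these members are uncertain, since reads may have been split with or taken from such copies. Ube2c had 4.0% and Ube2t, Ube2cbp, Ube2g2, Ube2j1, Ube2w and Ube2z had no such window.

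In WT liver the 2 most abundant members were the mitotic partners of the anaphase-promoting complex. Ube2c, which starts chains for this ligase, was at 642 ± 83.4 FPKM (SD, n = 3), and Ube2s, which extends them, was at 514 ± 21.2 FPKM (SD, n = 3). Ube2l6, the E2 for ISG15, followed at 232 ± 64.8 FPKM (SD, n = 3) and the broadly used Ube2d3 at 171 ± 3.79 FPKM (SD, n = 3). FPKM is per transcript length, so these levels can be set beside each other as far as the reads belong to the gene. The place of Ube2s is uncertain, since 94.7% of its 50-base windows occur elsewhere in the genome. The share was 30.8% for Ube2d3, 23.4% for Ube2l6 and 4.0% for Ube2c. The WT ranges of Ube2c (549 to 711 FPKM) and Ube2s (497 to 538 FPKM) did not overlap, and Ube2l6 varied from 164 to 293 FPKM and reached below the Ube2d3 range of 168 to 175 FPKM. At the other end, Ube2j2 was at 7.52 ± 0.817 FPKM (SD, n = 3) and Ube2cbp was the lowest member tested at 3.72 ± 0.0367 FPKM (SD, n = 3). Ube2ql1 (0.331 to 1.55 FPKM), Ube2u (0.0863 to 0.217 FPKM) and Ube2dnl (listed at 0 in all 6 livers) were below the filter and were not tested.

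**Figure D1:**
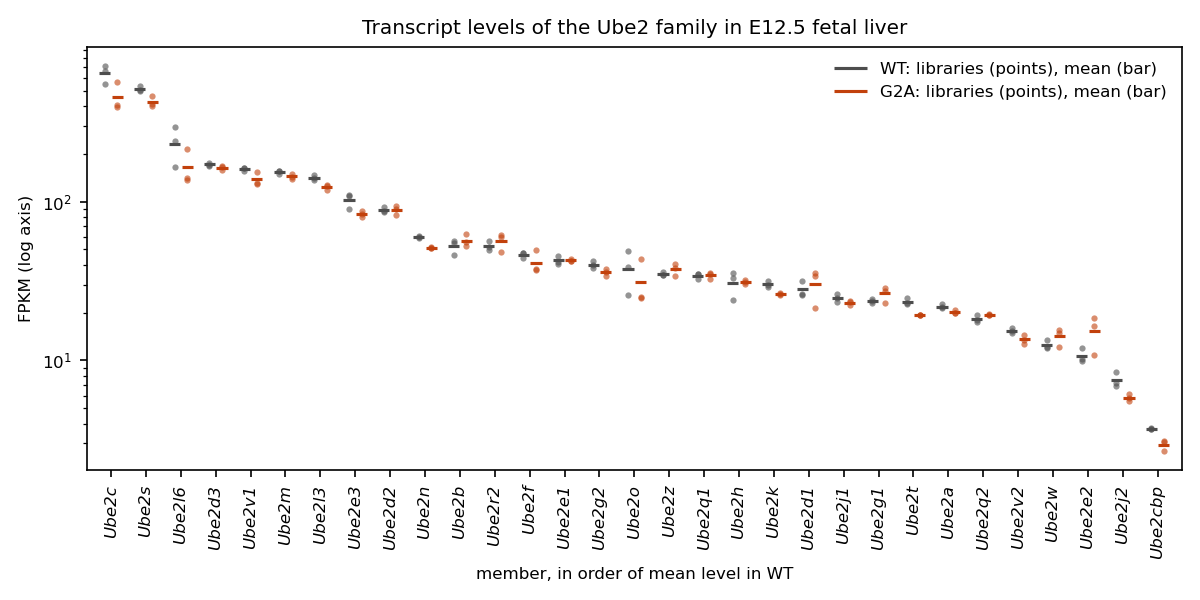
FPKM of 31 of the 32 tested members in E12.5 liver on a log axis, in order of the WT mean; points are libraries (3 WT in grey, 3 G2A in orange) and bars are group means. Ube2c and Ube2s lie at 397 FPKM or more in every liver, and single values run from 2.69 FPKM (Ube2cbp) to 711 FPKM (Ube2c).

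In the livers, most members were slightly below their WT level in G2A, and no member passed the test. The limma test on log2(FPKM + 1) with Benjamini-Hochberg adjustment called 0 of 32 members, beside 3 of 12938 genes tested (0.0232%). At an unadjusted p under 0.05, 11 members were lower (34.4% of the 32, against 12.4% of all genes) and 0 were higher (against 9.07%). All 3 G2A livers were below all 3 WT livers for 14 members (43.8%, against 15.7% of all genes) and above them for 0 members (against 11.8%). The log2 fold change of G2A over WT was below 0 for 21 members (65.6%, against 47.3% of all genes) and above 0 for 11 (34.4%, against 52.7%), with a median of -0.13 beside 0.01 over all genes tested. By library, the median deviation of the members from the WT mean was -0.14, -0.15 and -0.08 (log2) in G2A livers 1, 2 and 3, and between -0.02 and 0.02 in the WT livers.

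The calls depended on G2A liver 3. Without it, 9 members passed the same limma test with adjusted p under 0.05, when 24.4% of all genes did. Ube2c, Ube2f, Ube2l3, Ube2n, Ube2s, Ube2t and Ube2v1 fell (7 of 32, 21.9%, against 12% of all genes), and Ube2e2 and Ube2g1 rose (2 of 32, 6.25%, against 12.4%). The median over the members was again -0.13, beside 0.04 over all genes. With limma's library weights, which count a deviating library less, 18 members fell and 6 rose, when 20.7% and 26.1% of all genes did.

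**Figure D2:**
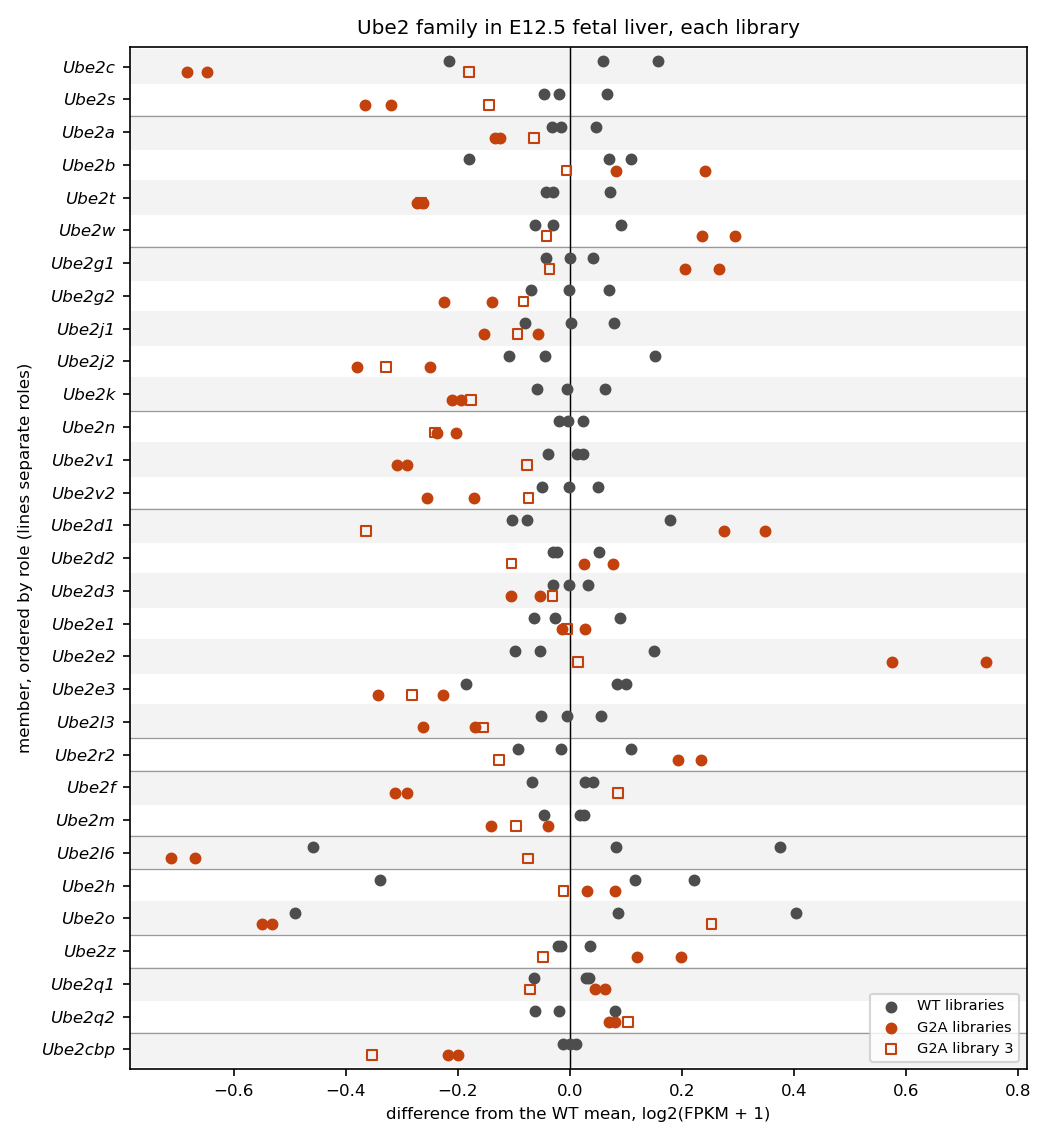
Each library's difference from the WT mean on the log2(FPKM + 1) scale for 31 of the 32 tested members in liver, ordered by role; grey circles are WT, filled orange circles are G2A livers 1 and 2, and open squares are G2A liver 3. For Ube2n, Ube2t and Ube2s all orange symbols lie left of all grey ones, and for Ube2f, Ube2o, Ube2d1 and Ube2e2 the open square lies away from the filled orange circles.

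Ube2c lies at chr2:164595398-164604322 and Ube2s at chr7:4759616-4763942 (NCBIM37, whole genes). Ube2c was at 665, 549 and 711 FPKM across WT livers against 407, 397 and 563 FPKM across G2A livers. G2A livers 1 and 2 were under every WT liver, and G2A liver 3 was level with WT liver 2. The log2 fold change was -0.50 (SE 0.16), and it did not pass the limma test (adjusted p = 0.162). Without G2A liver 3 it was -0.67 (SE 0.11, limma adjusted p = 0.0171). Ube2s was at 507, 497 and 538 FPKM in WT against 412, 398 and 465 FPKM in G2A, with no overlap. Its log2 fold change was -0.28 (SE 0.08, limma adjusted p = 0.134), and -0.34 (SE 0.06, limma adjusted p = 0.0166) without G2A liver 3.

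Proliferation markers, taken as a sum, stood in the same order of groups. Their summed level was 3574, 3814 and 3702 FPKM in the WT livers and 2801, 2601 and 3291 FPKM across G2A livers. Within WT the order differed: WT liver 2 had the highest sum but the lowest Ube2c and Ube2s. Mki67, a gene of this list, did not follow the sum. It was at 144, 150 and 130 FPKM in WT and 127, 111 and 190 FPKM in G2A (log2 fold change -0.02). Of the 24 cell-cycle genes on this list, all tested, 0 passed the adjusted test. At an unadjusted p under 0.05, 20 were lower (against 12.4% of all genes), and the median log2 fold change was -0.33. Without G2A liver 3, 19 of the 24 fell (against 12% of all genes). Their part in the levels of Ube2c and Ube2s was not tested. In bulk tissue, fewer cells of a type and less RNA per cell cannot be told apart. Of the ligase these enzymes serve, 0 of 15 subunits and activators tested passed in liver, and the smallest p belonged to the activator Cdc20 at 117 ± 6.44 FPKM in WT and 93.1 ± 3.75 FPKM in G2A (SD, n = 3 each; log2 fold change -0.32, limma adjusted p = 0.095).

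Ube2t, the E2 that works with Fancl to mark Fancd2 with a single ubiquitin in DNA crosslink repair, showed the tightest G2A values of the family. It was at 22.9, 22.7 and 24.7 FPKM in WT against 19.4, 19.2 and 19.3 FPKM in G2A, so all 3 mutant livers were lower. The log2 fold change was -0.27 (SE 0.06, limma adjusted p = 0.107). In the Fanconi list 0 of 11 tested genes passed. A log2 fold change below 0 was found for 11 of 11 (against 47.3% of all genes), with a median of -0.12. Without G2A liver 3, 9 of the 11 were below 0 (against 45.3% of all genes) and 2 above. In that setting 2 passed as lower (against 12% of all genes). With all livers Fancl itself had the smallest p, at 16.1 ± 1.02 FPKM in WT and 12.2 ± 0.24 FPKM in G2A (SD, n = 3 each, log2 fold change -0.37, limma adjusted p = 0.0914). The other repair E2s went different ways: Ube2a, a partner of Rad18, had a log2 fold change of -0.11, its close relative Ube2b 0.11, and Ube2w, which attaches ubiquitin to protein N termini, 0.16, and none of these 3 passed.

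The promoters of Ube2c, Ube2t and Ube2s, 3 cell division and repair genes, are shown because they differ in CCAAT and TTTGAA. These elements are known from promoters of cell-cycle genes. The 3 genes were each lower in G2A livers 1 and 2 than in every WT liver. This held for 18 of the 32 members (56.2%) and 27.3% of all genes, so it is not particular to them. Each line gives bases 250 to 21 before the RefSeq start (GRCm38.p6 table), placed by exact match on NCBIM37, 5′ to 3′ on the gene's strand; the GENCODE model of Ube2c starts within the last bases of its line. Capitals mark CCAAT and TTTGAA on either strand (read as ATTGG and TTCAAA where they lie on the other strand). One pair of CCAAT matches on opposite strands overlaps in Ube2c.
Ube2c, chr2:164595179-164595408, plus strand: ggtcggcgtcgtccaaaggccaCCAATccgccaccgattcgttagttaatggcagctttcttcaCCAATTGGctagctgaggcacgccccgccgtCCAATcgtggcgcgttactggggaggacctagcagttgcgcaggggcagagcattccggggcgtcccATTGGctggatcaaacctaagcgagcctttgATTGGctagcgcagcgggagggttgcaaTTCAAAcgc
Ube2t, chr1:136858892-136859121, plus strand: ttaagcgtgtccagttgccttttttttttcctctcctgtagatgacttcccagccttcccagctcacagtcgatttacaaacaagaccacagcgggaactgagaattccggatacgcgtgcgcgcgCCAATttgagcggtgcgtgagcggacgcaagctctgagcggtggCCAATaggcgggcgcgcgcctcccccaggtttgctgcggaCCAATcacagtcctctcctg
Ube2s, chr7:4763963-4764192, minus strand: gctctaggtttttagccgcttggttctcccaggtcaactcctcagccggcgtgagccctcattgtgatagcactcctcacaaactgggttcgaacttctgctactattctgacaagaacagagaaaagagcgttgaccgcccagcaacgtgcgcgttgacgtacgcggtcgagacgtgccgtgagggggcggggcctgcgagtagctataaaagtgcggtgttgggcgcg
Within 250 bases before the start, Ube2c held CCAAT at 6 positions and TTTGAA once, 29 to 24 bases before the start on the reverse strand. Ube2t held CCAAT at 124, 80 and 40 bases before the start, and neither motif was found in the window of Ube2s. Other members that were lower in these livers also differed. A promoter of Ube2f held CCAAT at 176, 125 and 62 bases and TTTGAA at 41 to 36 bases before the start. The window of Ube2n held neither motif. Of all 32851 mouse promoters of this length in the RefSeq table, 33.8% held CCAAT and 16% held TTTGAA. The 30 member genes with a promoter in the table had 41 promoters, of which 9 held CCAAT and 4 held TTTGAA. Both shares were below those of all promoters. The motif GGGCGG was found in 27 of the 41 promoters of these genes (65.9%) and in 32.7% of all promoters. Such matches are letters in a window and were not tested as binding sites.

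The E2 for K63-linked chains, Ube2n (chr10:94977779-95008292, NCBIM37, whole gene), had the smallest p of the family in liver. It was at 59.9, 59.3 and 61.1 FPKM across WT livers against 52.1, 50.9 and 50.7 FPKM across G2A livers. The groups were apart, with a log2 fold change of -0.23 (SE 0.05, limma adjusted p = 0.0994). Its catalytically inactive partners were lower as well: Ube2v1 was at 157, 163 and 164 FPKM in WT and 131, 130 and 153 FPKM in G2A (log2 fold change -0.23, limma adjusted p = 0.166). Ube2v2 was at 14.8 to 15.9 FPKM in WT and 12.7 to 14.5 FPKM in G2A (log2 fold change -0.17, limma adjusted p = 0.251). All 3 genes of this group were lower with no overlap between genotypes, as were 15.7% of all genes, and 0 of 3 passed. Their values are uncertain, since 28.1% (Ube2n), 75.2% (Ube2v1) and 35.9% (Ube2v2) of their 50-base windows occur elsewhere in the genome. Among 10 ligases that build or start K63 chains, 0 passed and 6 had a log2 fold change above 0 (against 52.7% of all genes). Rnf8 (21.9 ± 0.921 FPKM in WT, 18.8 ± 0.695 FPKM in G2A, SD, n = 3 each) had the smallest p (limma adjusted p = 0.145).

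Endoplasmic reticulum-associated degradation removes misfolded membrane and secretory proteins. Of its 5 E2s, 4 had a log2 fold change below 0 (against 47.3% of all genes) and 0 passed. Ube2j2, an E2 anchored in the reticulum membrane, was at 6.88, 7.24 and 8.44 FPKM in WT against 6.15, 5.53 and 5.77 FPKM in G2A. All G2A livers were lower (log2 fold change -0.32, SE 0.10, limma adjusted p = 0.148). Ube2g2, an E2 of this pathway without a membrane anchor, was at 38.1, 42.1 and 39.9 FPKM in WT against 36.2, 34.1 and 37.7 FPKM in G2A (log2 fold change -0.15, limma adjusted p = 0.25). Ube2j1, the other membrane-anchored E2, overlapped between genotypes at 23.4 to 26.3 FPKM in WT and 22.2 to 23.8 FPKM in G2A (log2 fold change -0.10, limma adjusted p = 0.408). Ube2k, which builds K48 chains, was at 31.5, 30.1 and 28.9 FPKM in WT and 25.9, 26.2 and 26.6 FPKM in G2A (log2 fold change -0.19, limma adjusted p = 0.14). Ube2g1 was the member of this group above WT, at 28.7, 27.5 and 23.1 FPKM in G2A against 23.0 to 24.4 FPKM in WT. It rose when G2A liver 3 was left out (log2 fold change 0.24, limma adjusted p = 0.0355), and with all livers it was at 0.15 (limma adjusted p = 0.388).

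In the ligase machinery list of the reticulum, 1 of 18 genes passed in liver (against 0.0232% of all genes). A log2 fold change above 0 was found for 14 of 18 (against 52.7% of all genes), with a median of 0.10. The gene that passed was Derl3, a derlin of the retrotranslocation channel, which rose from 1.04 ± 0.478 FPKM in WT to 28.6 ± 8.21 FPKM in G2A (SD, n = 3 each; log2 fold change 3.85, limma adjusted p = 0.0106). Folding chaperones of the reticulum summed to 2330 to 2363 FPKM in WT livers and 2812 to 3215 FPKM in G2A livers.

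Among the E2s that start chains for many ligases, 0 of 7 passed. Ube2l3, which serves HECT and RBR ligases, was at 137, 147 and 141 FPKM in WT against 126, 118 and 127 FPKM in G2A (log2 fold change -0.20, SE 0.06, limma adjusted p = 0.138). Ube2e3 had a log2 fold change of -0.28 (limma adjusted p = 0.156), whereas its relative Ube2e2 was at 12, 9.92 and 10.3 FPKM in WT against 16.4, 18.6 and 10.8 FPKM in G2A. Ube2e2 in G2A liver 3 lay within the WT range, and its log2 fold change was 0.44 (SE 0.19, limma adjusted p = 0.25) with that liver and 0.66 (SE 0.10, limma adjusted p = 0.0151) without it. Ube2d1 followed the same split, at 35.7 and 33.9 FPKM in G2A livers 1 and 2 and 21.4 FPKM in G2A liver 3 against 25.9 to 31.7 FPKM in WT. The abundant Ube2d3 and Ube2d2 had log2 fold changes of -0.06 and 0.00. Among the rest, the values were 0.10 for Ube2r2, an extending E2 of cullin ligases, 0.09 for Ube2z, 0.00 for Ube2e1, and 0.01 and 0.09 for Ube2q1 and Ube2q2.

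Mesenchymal markers and primitive globins were highest in the same livers as Ube2e2 and Ube2d1. The summed mesenchymal markers were 588, 418 and 604 FPKM in WT livers and 1206, 1771 and 874 FPKM in G2A livers, and primitive (yolk sac type) globins summed to 14637 to 26761 FPKM in WT and to 52352, 67999 and 22747 FPKM in G2A. In both lists G2A liver 3 was the lowest of the mutant livers, as it was for these 2 members. Markers of other cell types were ordered differently: the hepatoblast, megakaryocyte and endothelial sums were highest in G2A liver 3 and the macrophage sum in WT liver 3. The part of these cell types in the values was not tested.

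The NEDD8 enzymes Ube2m and Ube2f, which activate cullin ligases, had log2 fold changes of -0.09 and -0.17 and did not pass. Ube2f was at 37.7 and 37.1 FPKM in G2A livers 1 and 2 and at 49.2 FPKM in G2A liver 3, above the WT range of 44.1 to 47.7 FPKM. It fell when that liver was left out (log2 fold change -0.30, limma adjusted p = 0.0197). Of the 12 NEDD8, SUMO and ISG15 pathway genes tested in liver, 0 passed, and Sumo2 had the smallest p at 588 ± 14.3 FPKM in WT and 529 ± 10.5 FPKM in G2A (SD, n = 3 each; limma adjusted p = 0.165).

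Ube2o and Ube2l6 varied widely between livers of the same genotype, and Ube2h varied among the WT livers only. Ube2o, an E2 with its own ligase activity that removes ribosomal proteins from maturing red cells, was at 38.8, 25.7 and 48.5 FPKM in WT against 24.9, 24.6 and 43.6 FPKM in G2A. High values occurred in 2 WT livers and 1 G2A liver, and the log2 fold change was -0.28 (SE 0.30, limma adjusted p = 0.611). Ube2l6 was at 239, 164 and 293 FPKM in WT against 137, 141 and 214 FPKM in G2A (log2 fold change -0.49, SE 0.26, limma adjusted p = 0.325). Replicate numbers are not tied to a litter by the labels. Between livers of the same number, Ube2o and Ube2l6 were each lower in G2A at all 3 numbers. This held for 19 of the 32 members tested and for 25.9% of all genes. Ube2h, the E2 of a ligase complex used late in red cell maturation, was at 33.1, 23.9 and 35.7 FPKM in WT against 31.2, 32.3 and 30.2 FPKM in G2A. WT liver 2 alone was low for Ube2h (log2 fold change 0.03, SE 0.15, limma adjusted p = 0.911).

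The livers high and low in Ube2o and Ube2l6 were also high and low in the summed erythroid list, but not in primitive globins. The erythroid list summed to 25405, 16517 and 25975 FPKM in the WT livers and to 13456, 12198 and 25716 FPKM across G2A livers. WT liver 2 and G2A livers 1 and 2 were the 3 lowest for this sum, for Ube2o, for Ube2l6 and also for Ube2c. Ube2h was not ordered this way, since among the G2A livers it was lowest in liver 3, which had the highest erythroid sum. Primitive globins, a separate list, ran the other way. Their sums were highest in WT liver 2 (26761 FPKM) and G2A livers 1 and 2 (52352 and 67999 FPKM), against 14637 to 22747 FPKM in the remaining livers. Of 18 erythroid genes tested, 0 passed, 3 were lower at an unadjusted p under 0.05 (against 12.4% of all genes), and 17 had a log2 fold change below 0 (against 47.3%); without G2A liver 3, 15 fell (against 12% of all genes). The part of the share of red cell precursors in the levels of these members was not tested. Interferon-response genes in liver summed to 69.1, 72.4 and 127 FPKM in WT and to 66.3, 65.6 and 75.6 FPKM in G2A, and Ube2l6 was highest in the WT liver with the highest of these sums.

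**Figure D3:**
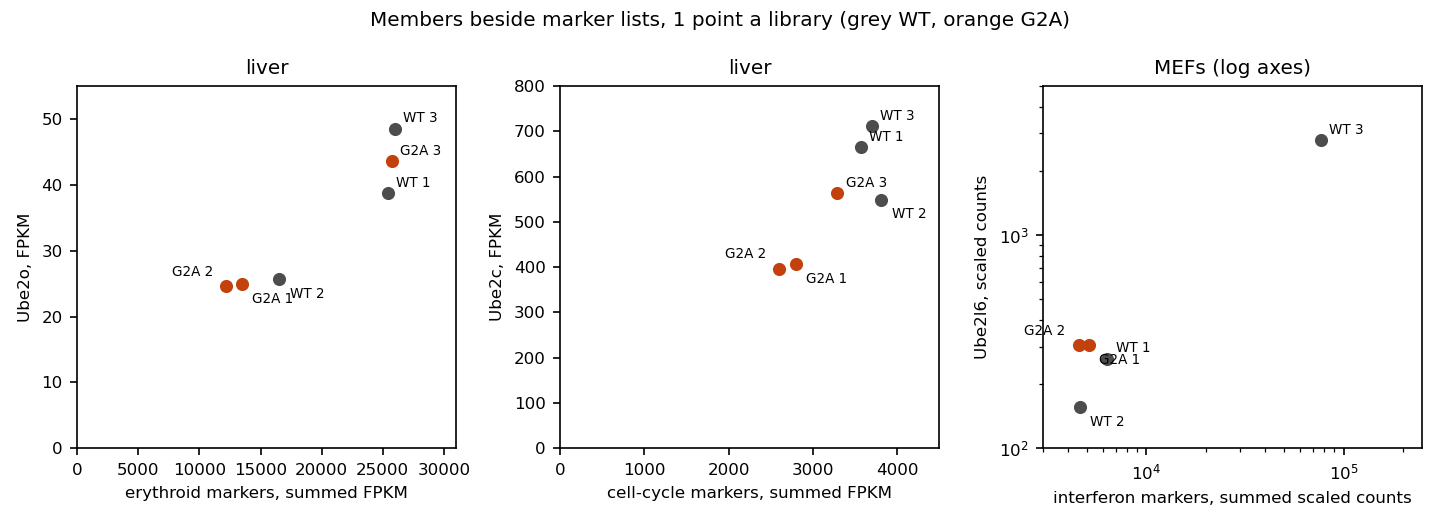
A point is 1 library: Ube2o against summed erythroid markers and Ube2c against summed cell-cycle markers in liver (FPKM, linear axes), and Ube2l6 against summed interferon-response genes in MEFs (scaled counts, log axes), WT in grey and G2A in orange. G2A liver 3 lies with WT livers 1 and 3 in the first panel, and WT MEF 3 is far from the other 4 libraries in the third.

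In MEFs no member passed either, and most members were slightly above their WT level in G2A. The limma test on log2(scaled count + 1) with Benjamini-Hochberg adjustment called 0 of 32 members and 0 of 13241 genes (0%), with 1903 genes at an unadjusted p under 0.05. The edgeR quasi-likelihood test on recovered reads also called 0 genes (0%), with 1844 at an unadjusted p under 0.05, and DESeq2 called 1035 genes (7.82%) including 1 member, Ube2cbp. At an unadjusted p under 0.05, limma had 3 members higher (Ube2cbp and Ube2o among them; 9.38%, against 6.9% of all genes) and 1 lower (Ube2h; 3.12%, against 7.48%). Both G2A libraries were above all 3 WT libraries for 8 members (25.0%, against 18.9% of all genes) and below them for 3 (9.38%, against 18%). The log2 fold change was above 0 for 24 members (75.0%, against 51.6% of all genes) and below 0 for 8 (25.0%, against 48.4%), with a median of 0.12 beside 0.01 over all genes.

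This pattern rested largely on WT MEF 3. It was below both other WT libraries for 26 of 32 members, and its median deviation from the WT mean was -0.19 (log2), against 0.01 and 0.15 in WT MEFs 1 and 2 and 0.13 and 0.09 in the G2A libraries. Without it the median over the members was 0.05 beside 0.01 over all genes, with 18 members above 0 (56.2%, against 50.9% of all genes) and 14 below (43.8%, against 49.1%). Ube2cbp then rose and Ube2h fell in the limma test, when 23.2% of all genes passed (11.7% higher, 11.5% lower). With library weights 6 members rose and 3 fell, when 23.8% and 22.5% of all genes did.

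**Figure D4:**
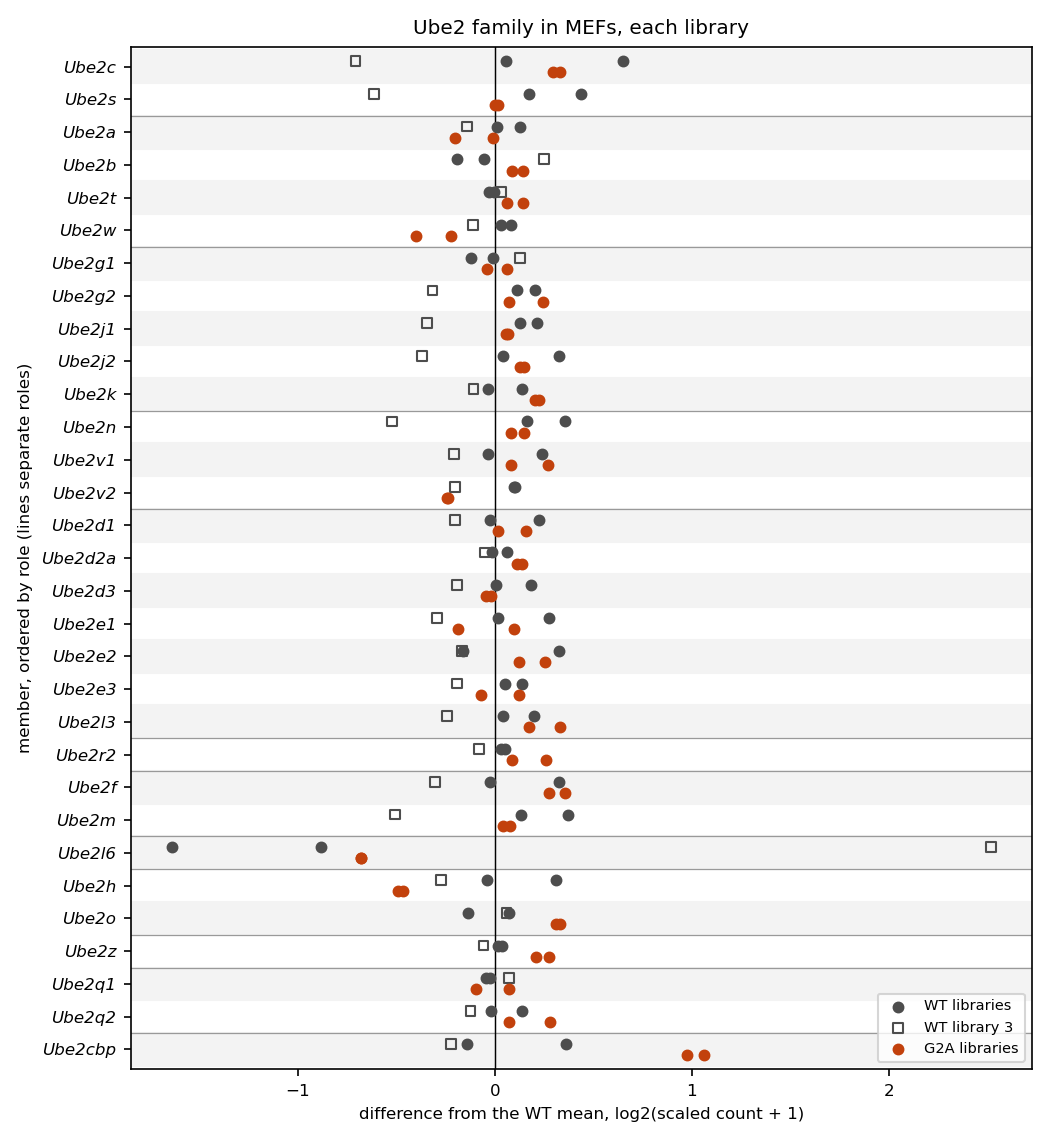
Each MEF library's difference from the WT mean on the log2(scaled count + 1) scale for 31 of the 32 tested members, ordered by role; grey circles are WT MEFs 1 and 2, open squares are WT MEF 3 and orange circles are the 2 G2A libraries. The open square is the lowest WT symbol for most members and the highest symbol of all for Ube2l6, and both orange circles of Ube2cbp lie beyond every WT library.

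Ube2cbp (chr9:86200841-86358557, NCBIM37, whole gene) had the smallest p of the family in MEFs. It was at 169, 240 and 160 scaled counts in WT against 391 and 368 in G2A, so both mutant libraries were above all WT libraries. The log2 fold change was 1.02 (SE 0.27, limma adjusted p = 0.279), and 0.91 (SE 0.23, limma adjusted p = 0.0396) without WT MEF 3. Ube2o was at 1989, 2296 and 2273 scaled counts in WT against 2743 and 2703 in G2A (log2 fold change 0.32, SE 0.11, limma adjusted p = 0.323). The erythroid list summed to 4088 to 5479 scaled counts in MEFs. Of its 21 genes with a MEF value, 5 were tested, and 8 were at 0 in every MEF library (Gata1, Slc4a1, Epb4.2, Kel and the adult globins Hba-a1, Hba-a2, Hbb-b1 and Hbb-b2).

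Ube2h was the member furthest below WT in MEFs apart from Ube2l6. It was at 5141, 4026 and 3425 scaled counts in WT against 2950 and 2994 in G2A. The 2 mutant libraries lay close together under a WT group that itself spread widely (log2 fold change -0.48, SE 0.19, limma adjusted p = 0.345). Without WT MEF 3 the log2 fold change was -0.61 (SE 0.13, limma adjusted p = 0.0268). Ube2w was at 1391, 1343 and 1218 scaled counts in WT against 998 and 1126 in G2A (log2 fold change -0.31, limma adjusted p = 0.366). Ube2z, which takes ubiquitin from the alternative E1 Uba6 and also carries FAT10, was at 6896, 6796 and 6449 in WT against 7748 and 8125 in G2A (log2 fold change 0.24, limma adjusted p = 0.353).

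The log2 fold changes of the mitotic pair in MEFs depended on WT MEF 3. Ube2c was at 9027, 13608 and 5315 scaled counts in WT against 10898 and 10643 in G2A, and Ube2s was at 9210, 11033 and 5329 in WT against 8154 and 8248 in G2A. For both genes WT MEF 3 was the lowest library and WT MEF 2 the highest, with the mutant libraries between them. The log2 fold changes were 0.31 (SE 0.39) and 0.01 (SE 0.32), and they were -0.041 and -0.30 without WT MEF 3. With all libraries Ube2s did not lie above WT, since its mean was 8201 scaled counts in G2A and 8524 in WT. Cell-cycle markers summed to 166316 scaled counts in WT MEF 3 and to 216404 to 232449 in the other 4 libraries. Per kilobase of exon, Ube2s (8627), Ube2d3 (5570) and Ube2c (3583) had the highest WT means of scaled counts in MEFs. The place of Ube2s is uncertain here too, since 94.7% of its 50-base windows occur elsewhere in the genome.

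Ube2t, the repair E2, was at 375, 381 and 391 scaled counts in WT MEFs against 399 and 423 in G2A, with no overlap (log2 fold change 0.10, SE 0.17, limma adjusted p = 0.795). The membrane-anchored Ube2j1 and Ube2j2 had log2 fold changes of 0.06 and 0.14 with WT MEF 3 and of -0.11 and -0.044 without it. Ube2g2 was at 4224, 4498 and 3137 scaled counts in WT against 4627 and 4108 in G2A (log2 fold change 0.16, limma adjusted p = 0.709). Ube2k was at 5194, 5857 and 4930 in WT against 6212 and 6121 in G2A, with no overlap (log2 fold change 0.21, limma adjusted p = 0.438). A further 18 members tested in MEFs had log2 fold changes from -0.24 (Ube2v2) to 0.32 (Ube2f).

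The MEF value of Ube2l6 rested on 1 library. It was at 264, 156 and 2792 scaled counts in WT against 304 and 304 in G2A, and the highest value was in WT MEF 3. The interferon-induced genes were high in the same library: Isg15, the modifier that Ube2l6 carries, was at 78.3, 73.1 and 6110 scaled counts in WT against 69.0 and 58.8 in G2A. Ifit1 and Irf7 were at 7527 and 6357 scaled counts in WT MEF 3 and at no more than 165 and 45.1 in any other library. The log2 fold change of Ube2l6 was -0.68 (SE 1.25, limma adjusted p = 0.819) and turned to 0.58 (SE 0.29, limma adjusted p = 0.192) without WT MEF 3. The part of the interferon-response genes in this value was not tested.

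Of the members not tested in MEFs, Ube2ql1 was at 0 to 9.40 scaled counts and Ube2d2b at 0 except for 1.88 in WT MEF 3. Ube2u, Ube2dnl1 and Ube2dnl2 were at 0 in all 5 libraries, where a count of 0 allows up to 3 counts among 36415586 to 37695116 gene reads.

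Around the family, 0 of 9 genes of the E1 list passed in either source. Uba1, the main ubiquitin E1, had the smallest p in MEFs at 22875 ± 3497 scaled counts in WT (SD, n = 3) and 29637 ± 1095 in G2A (SD, n = 2; log2 fold change 0.38, limma adjusted p = 0.385). Among 8 E2s named outside the Ube2 pattern, 0 passed in either source. One of them, Cdc34, a chain-extending E2 of cullin ligases, was at 156, 167 and 172 FPKM across WT livers against 121, 116 and 153 FPKM in G2A livers (log2 fold change -0.35, SE 0.11, limma adjusted p = 0.16). In MEFs Cdc34 was at 4549 to 7041 scaled counts in WT against 6772 and 6940 in G2A (log2 fold change 0.32, limma adjusted p = 0.493). Of the 4 ubiquitin genes, 0 passed in either source, and Rps27a, which encodes a ubiquitin fusion, had a log2 fold change of 0.52 in MEFs (limma adjusted p = 0.282). The ligase machinery of the reticulum had 0 of 17 genes past the test in MEFs. Of these, 13 of 17 were below 0 (against 48.4% of all genes), with a median of -0.08. The 31 proteasome subunits were all below 0 in liver (median -0.21), against 47.3% of all genes. In MEFs they were all above 0 (median 0.38), against 51.6% of all genes, and 0 passed the test in either source. Without G2A liver 3, 25 of these subunits fell in liver (against 12% of all genes). Without WT MEF 3, 14 rose in MEFs (against 11.7% of all genes) and 1 of 31 was below 0 (against 49.1%).

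The effects in liver and MEFs were set against each other for the 31 members tested in both, since no library is shared. No member passed (0 of 31, beside 239 of 10818 genes, 2.21%), and 5 had an unadjusted p under 0.05 (16.1%, against 23.6% of all genes). The liver effect was below the MEF effect for 23 members (74.2%, against 51.2% of all genes) and above it for 8 (25.8%, against 48.8%), with a median difference of -0.15 beside -0.02 over all genes. The smallest p belonged to Ube2cbp, whose liver values did not overlap, at 3.75, 3.68 and 3.72 FPKM for WT against 3.10, 3.05 and 2.69 FPKM for G2A. Its log2 fold change was -0.26 in liver and 1.02 in MEFs (difference -1.28, SE 0.28, adjusted p = 0.0699). Ube2k had log2 fold changes of -0.19 and 0.21 (difference -0.41, SE 0.13, adjusted p = 0.114).

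Without WT MEF 3, 5 of the 31 members passed the test of the difference, when 30.1% of all genes did. Among them, Ube2cbp and Ube2k had a lower effect in liver than in MEFs (differences of -1.17 and -0.35, adjusted p = 0.0117 and 0.0381). Ube2h and Ube2w had a higher effect in liver (differences of 0.65 and 0.53, adjusted p = 0.0289 and 0.0252). The median difference of the members was then -0.08, beside -0.02 over all genes.

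**Figure D5:**
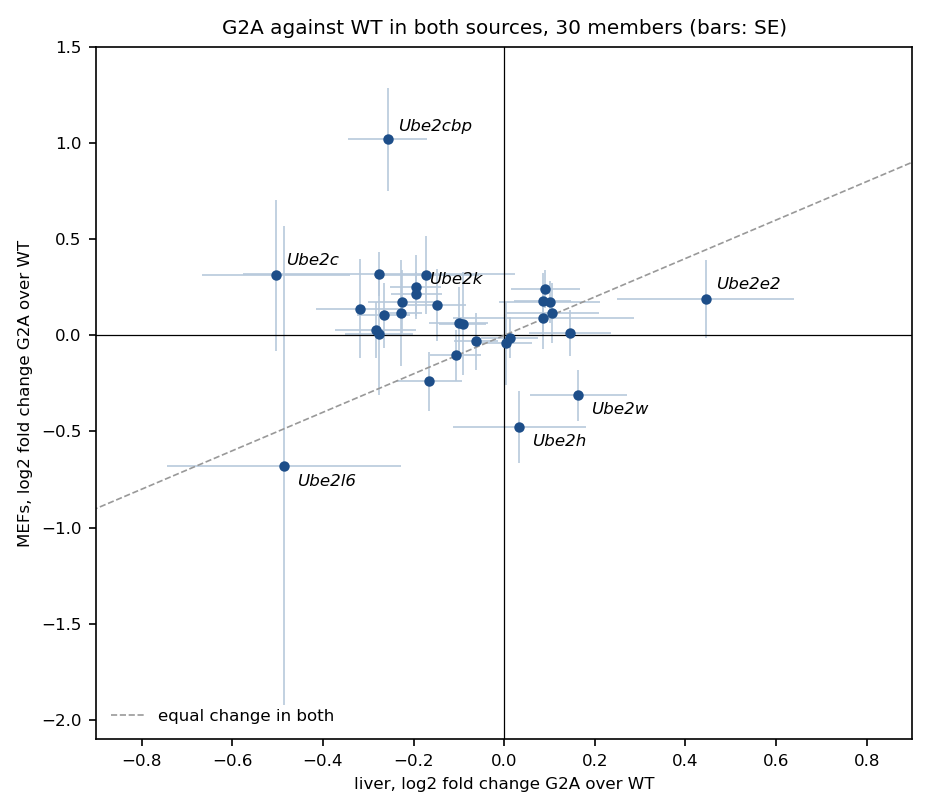
Log2 fold change of G2A over WT in liver (x axis) and in MEFs (y axis) for 30 of the 31 members tested in both, with standard errors as bars and a dashed line of equal change. Ube2cbp lies highest, at -0.26 and 1.02, and the vertical bar of Ube2l6 is the longest (SE 1.25).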

How the data were processed

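The members and lists were chosen with earlier results of these data known. Total RNA was sequenced; per the labels' protocols, mm9 alignment with TopHat used 50 bp reads after trimming, and per the submitters' processing notes TopHat2 2.1.1 and Cufflinks 2.2.1 were used, with mm10 also listed. The liver FPKM deposited by the authors were used as log2(FPKM + 1), keeping genes with at least 1 FPKM in at least 3 libraries; their unit follows from the named tools and the values. The MEF values deposited by the authors were a signal per gene, counts divided by size factors (0.958 to 1.06), which gave back whole reads for 100% of values within 0.01; genes with at least 10 in at least 2 libraries were kept, and edgeR 4.0.16 and DESeq2 1.42.0 on those reads were alternatives. The main test was limma 3.58.1 in R 4.3.3 with a variance trend and Benjamini-Hochberg adjustment over all genes tested, threshold 0.05. Liver and MEF effects were compared by their difference over its combined standard error (Satterthwaite degrees of freedom, the same adjustment). Tables were normalized separately, so levels were not compared between sources. All members enter the counts, and 1 is not reported singly here or drawn; described in full were, apart from it, the 6 members with the smallest p in each source, the highest and lowest liver members, the 3 with the smallest p in the difference, and Ube2c, Ube2s, Ube2t, Ube2j1, Ube2j2, Ube2g2, Ube2o, Ube2h and Ube2l6. From each pathway list a gene past the threshold, or else the 1 with the smallest p, was named. Scripts were tested on simulated data. Windows, positions and promoters used NCBIM37 with GENCODE vM1 and the RefSeq promoter table (GRCm38.p6); 30 member genes matched. MEF strand use is not given in the sources used here.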

Additional observations from a re-analysis of the deposited data

How the results depend on the processing

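Most alternatives left the counts of calls as they were, and the exceptions follow. In liver, library weights (limma) gave 6 members higher and 18 lower, when 26.1% and 20.7% of all genes passed. Leaving out single livers gave 0 to 2 higher and 0 to 7 lower. The upper ends were without G2A liver 3, when 12.4% and 12% of all genes passed. The liver median of -0.13 was -0.10 without a filter, -0.087 after quantile normalization and -0.10 over members with under 10% shared windows, an alternative chosen after seeing the data. In MEFs, DESeq2 gave 1 higher (against 2.95% of all genes), and library weights 6 higher and 3 lower (against 23.8% and 22.5%). Leaving out single libraries gave 0 to 1 higher and 0 to 1 lower, with 1 of each without WT MEF 3 (against 11.7% and 11.5%). For the difference between sources, leaving out single libraries gave 0 to 2 higher and 0 to 3 lower. The upper ends were without WT MEF 3, when 14.6% and 15.5% of all genes passed. There was 1 lower without G2A liver 3 and 1 lower without WT MEF 2. The shares of all genes in those settings are not given here, so these calls cannot be set beside them. The sign turned for Ube2h in liver (-0.0079 with library weights, and -0.14 to 0.14 when single livers were left out, below 0 without WT liver 2). In MEFs it turned for Ube2j1 (-0.065) and Ube2l6 (0.19) with library weights, and for Ube2s with DESeq2 (-0.057), edgeR (-0.056) and library weights (-0.18). Left-out libraries gave ranges of -0.041 to 0.64 for Ube2c, -0.11 to 0.17 for Ube2j1, -0.044 to 0.30 for Ube2j2, -1.50 to 0.58 for Ube2l6 and -0.30 to 0.23 for Ube2s in MEFs, each turning without WT MEF 3; the cause was not tested.

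The labels describe littermate pairs of livers but not which numbers belong together, and the numbers were not taken as pairs. Same-numbered deviations from the group means correlated at 0.18, -0.10 and 0.10 in liver and 0.13 and -0.03 in MEFs. These correlations cannot decide the pairing, since deviations within a group sum to 0 and those of the 2 G2A MEF libraries mirror each other. With a replicate block, 0 members passed in liver (0.0155% of all genes did; Ube2o adjusted p = 0.28, Ube2l6 adjusted p = 0.162), 1 rose and 1 fell in MEFs (14.3% and 13.7% of all genes), and 2 were higher and 5 lower in the difference (16.6% and 17.5% of all genes). In MEFs the block left WT MEF 3 alone, so its values equal those without that library (Ube2c -0.041, Ube2j1 -0.11, Ube2j2 -0.044, Ube2l6 0.58 and Ube2s -0.30). Liver depth is unknown, and 3 or 2 libraries a group limit what can be called.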
